A study of Rattus norvegicus with 8 samples.

Results

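Markers of blood vessels were followed in injured dorsal root ganglia (DRG) of rats given a histone deacetylase inhibitor (HDACI) or vehicle. The set held 10 genes chosen by name, with earlier results of these data known. Of these, 7 mark endothelial cells (Tie1, Tek, Pecam1, Cdh5, Kdr, Flt1 and Vwf) and 3 mark pericytes (Pdgfrb, Cspg4 and Rgs5). A probe set with that gene as its single symbol was found for 9 of the 10, out of 14497 named genes on the array. Vwf had none and is not analysed here. Each of the 9 genes had exactly 1 such probe set.

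The arrays came from the ipsilateral L5 DRG of adult male Wistar rats at day 14 after transection of the L5 spinal nerve. In the HDACI group the class I inhibitor MS-275 was infused intrathecally from an osmotic pump at 30 nmol per day, and the vehicle group received the solvent, dimethyl sulfoxide in saline. Each group had 4 biological replicates, each on 1 array, and every rat was injured, so uninjured ganglia were not compared. The catheter tip lay beside the upper lumbar cord, above the ganglion that was taken.

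The endothelium lines every vessel of the ganglion, and pericytes are the contractile cells that wrap its capillaries from outside. The cell types are tied together by paired signals, since endothelial cells release the ligand PDGF-B, which pericytes sense through the receptor Pdgfrb, and vessels are stabilised through angiopoietins and their receptor Tek. Endothelial growth is driven mainly by vascular endothelial growth factor (VEGF) acting on Kdr, while Flt1 also binds VEGF but has little signalling of its own. In sensory ganglia the capillaries are dense and more permeable than those of the nerve trunk.

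No vascular marker passed the test over the whole array. Of the 9 genes 8 had a higher mean in HDACI, but 0 reached an adjusted p under 0.05 (limma, Benjamini-Hochberg), as did 0 of all 28826 probe sets (percent called: 0), while 1022 probe sets had an unadjusted p under 0.05. The adjusted p was 1.0 for each of the 9 genes. At an unadjusted p under 0.05 there was 1 gene, Pdgfrb, higher in HDACI, where 1.61% of all probe sets were past that threshold in that direction. The groups overlapped for each of the 9 genes, and 1.01% of all probe sets had every HDACI array above every vehicle array. The median difference was 0.13 over the 6 endothelial genes and 0.15 over the 3 pericyte genes (log2, HDACI minus vehicle), against 0.01 over all probe sets, of which 53.3% were higher in HDACI. Pdgfrb, Cspg4, Rgs5 and Tie1 had been picked out in an earlier look at these arrays for their small p-values, so their directions are no independent evidence. The whole set was chosen with earlier results of these data known, so the count of 8 of 9 is a description only. In whole ganglia, fewer cells of a type and less RNA per cell cannot be told apart.

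Arrays differed in other cell types as well. As a check of the tissue label, the general neuronal genes Tubb3, Prph and Nefl lay at the 99.7th, 99.2nd and 99.6th percentile of all probe set means, and Isl1 and Pou4f1, transcription factors of sensory neurons, at the 68.1st and 72.6th. Percentiles of different probe sets are no comparison of levels, and detection was not tested. Skeletal muscle genes stood far higher in some vehicle arrays. All 16 measured of 20 were lower in HDACI, and their mean (log2, centred on the 8-array mean) ran from -1.11 to -0.76 in HDACI against -1.01 to 2.32 in vehicle. Vehicle replicates 1, 2 and 4 lay at 2.32, 1.56 and 0.59, and vehicle replicate 3 beside the HDACI arrays at -1.01. With this muscle mean as a covariate the median difference was 0.02 for the endothelial genes and 0.09 for the pericyte genes. Without vehicle replicates 1 and 2 it was 0.06 and 0.15. The muscle mean differed between the groups, so with it as a covariate group and muscle are poorly told apart. A p lost in that fit need not mean a smaller difference.

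**Figure D1:**
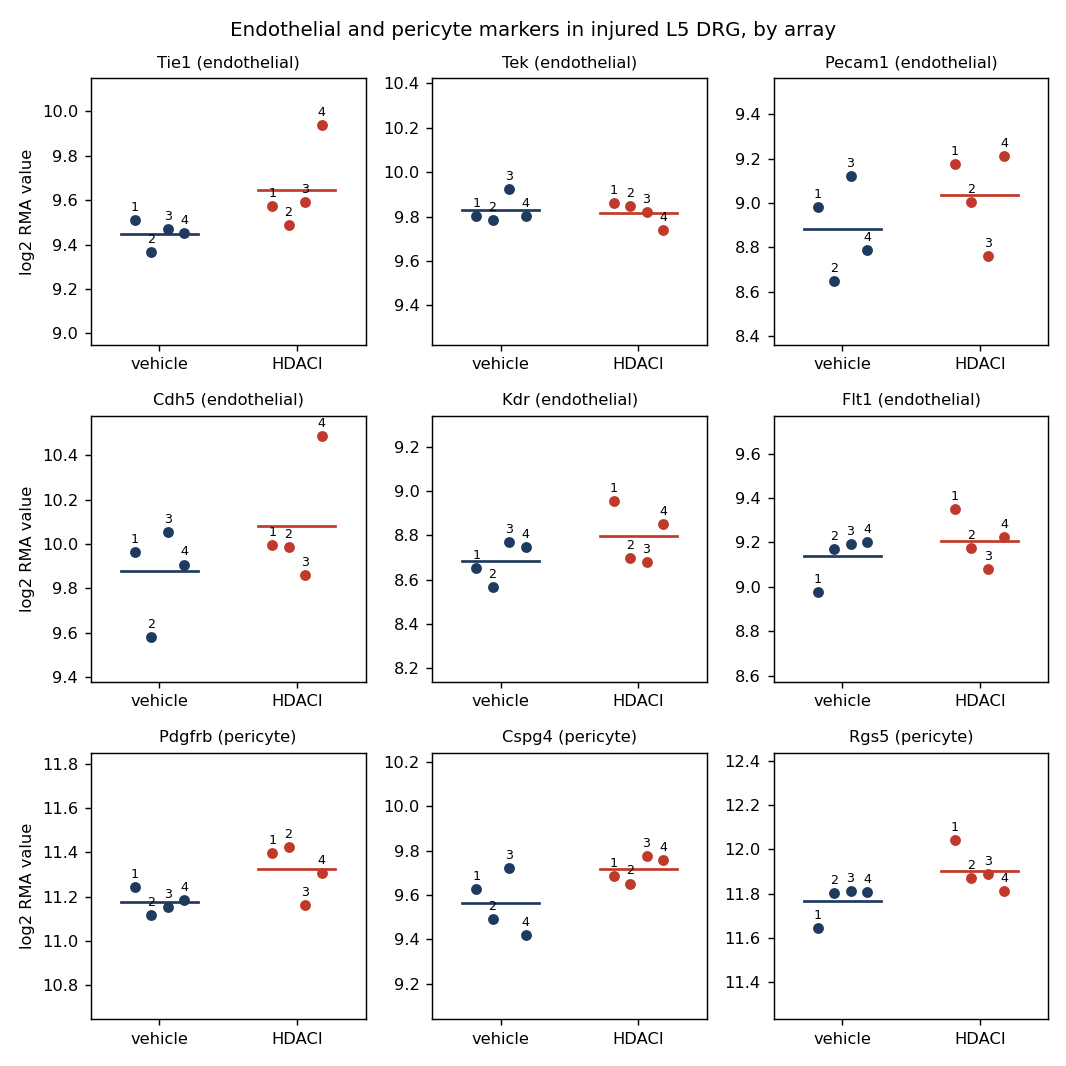
Log2 RMA values of the 9 measured markers are plotted per array (points, numbered by replicate) for vehicle (dark blue) and HDACI (red), short bars marking each group's mean (n = 4) and an axis of the same length in every panel. HDACI replicate 4 stands above the rest for Tie1 (9.94) and Cdh5 (10.49), and vehicle replicate 1 lies lowest for Rgs5 (11.65).

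The pericyte genes had nearly equal differences. All 3 had been picked for their small p-values in these arrays, so this likeness is a description only. In the wider pericyte and smooth muscle list the differences ran from -0.30 to 0.40 (log2). Pdgfrb (probe set 10802040), the receptor for PDGF-B on pericytes and also on fibroblasts, measured 11.40, 11.42, 11.16 and 11.31 in HDACI replicates 1 to 4 and 11.24, 11.12, 11.15 and 11.19 in vehicle replicates 1 to 4 (log2 RMA values). HDACI replicate 3 lay within the vehicle arrays and the remaining HDACI arrays lay above all of them. The difference was 0.15 ± 0.06 (log2, SE), with a limma 95% confidence interval of 0.00 to 0.30. Group means were 11.32 ± 0.12 in HDACI and 11.17 ± 0.05 in vehicle (SD, n = 4 each). When 1 array was left out, its unadjusted p stayed under 0.05 only without HDACI replicate 3 or without vehicle replicate 1.

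Cspg4 (probe set 10910237) encodes NG2, a surface proteoglycan of pericytes that oligodendrocyte precursors carry too. Its HDACI arrays lay close together, at 9.69, 9.65, 9.77 and 9.76, while the vehicle arrays were spread over 9.63, 9.49, 9.72 and 9.42. Vehicle replicate 3 reached into the HDACI range and the other vehicle arrays lay below it. The difference was 0.15 ± 0.07 (log2, SE), with an interval of -0.01 to 0.31. Of the oligodendrocyte precursor genes 4 of 6 were measured, of which 1 was higher in HDACI (median -0.06) or, without HDACI replicate 4, 3 (median 0.03), and Olig1 lay at the 20.8th percentile. Ptprz1, with the smallest p of that list, differed by -0.10 and Olig1 by -0.07, the latter by 0.05 without HDACI replicate 4.

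Rgs5 (probe set 10765437), a regulator of G protein signalling that is strongly made by pericytes, measured 12.04, 11.87, 11.89 and 11.81 in HDACI and 11.65, 11.80, 11.81 and 11.81 in vehicle. The vehicle arrays were level except replicate 1, and HDACI replicate 4 lay at their level. The difference was 0.14 ± 0.06 (log2, SE), with an interval of -0.01 to 0.28, and 0.09 without HDACI replicate 1. With the muscle mean as a covariate Rgs5 differed by 0.07, Cspg4 by 0.09 and Pdgfrb by 0.17.

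The endothelial genes varied more among themselves, but of these only Tie1 had been picked for its small p, so the spreads of the classes are not comparable. Tie1 (probe set 10879278), a relative of the angiopoietin receptor Tek, measured 9.57, 9.49, 9.59 and 9.94 in HDACI and 9.51, 9.37, 9.47 and 9.45 in vehicle. HDACI replicate 4 stood apart, HDACI replicate 2 lay below vehicle replicate 1, and HDACI replicates 1 and 3 lay just above the vehicle arrays. The difference was 0.20 ± 0.09 (log2, SE), with an interval of -0.01 to 0.41, and 0.10 without HDACI replicate 4.

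Tek (probe set 10869946), the partner of Tie1 and the receptor that binds angiopoietins, was the single marker with a lower mean in HDACI. It measured 9.86, 9.85, 9.82 and 9.74 in HDACI and 9.80, 9.79, 9.92 and 9.80 in vehicle. HDACI replicate 4, highest for Tie1, was here the lowest array of all. The difference was -0.01 ± 0.05 (log2, SE), with an interval of -0.13 to 0.10, and its sign turned without HDACI replicate 4 (0.01) and without vehicle replicate 3 (0.02).

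Cdh5 (probe set 10809048), the cadherin of endothelial junctions, had the largest difference of the 9 genes and also the widest spread. It measured 9.99, 9.98, 9.86 and 10.49 in HDACI and 9.96, 9.58, 10.05 and 9.91 in vehicle. Apart from HDACI replicate 4 at the top and vehicle replicate 2 at the bottom, the groups covered the same range. The difference was 0.20 ± 0.15 (log2, SE), with an interval of -0.13 to 0.54. Leaving out HDACI replicate 4 gave 0.07, and leaving out vehicle replicate 2 gave 0.11.

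Pecam1 (probe set 10940659), an adhesion molecule of endothelial junctions that leukocytes and platelets share, followed the same arrays. It measured 9.18, 9.01, 8.76 and 9.21 in HDACI and 8.98, 8.65, 9.12 and 8.79 in vehicle. Each group held both high and low arrays. The difference was 0.15 ± 0.13 (log2, SE), with an interval of -0.13 to 0.44. It ran from 0.08 without vehicle replicate 2 to 0.25 without HDACI replicate 3, and was 0.10 without HDACI replicate 4 and 0.23 without vehicle replicate 3.

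The VEGF receptors were highest in HDACI replicate 1. Kdr (probe set 10940650), the main signalling receptor, measured 8.96, 8.70, 8.68 and 8.85 in HDACI and 8.65, 8.57, 8.77 and 8.75 in vehicle. Its difference was 0.11 ± 0.08 (log2, SE), with an interval of -0.06 to 0.28, and 0.06 without HDACI replicate 1. HDACI replicates 2 and 3 lay inside the vehicle range.

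Flt1 (probe set 10756418), the decoy receptor, measured 9.35, 9.18, 9.08 and 9.22 in HDACI and 8.98, 9.17, 9.20 and 9.20 in vehicle. Apart from HDACI replicate 1 and vehicle replicate 1, at the ends of the range, the arrays of both groups lay together. Its difference was 0.07 ± 0.07 (log2, SE), with an interval of -0.10 to 0.24. Omitting either of those end arrays gave 0.02, and omitting HDACI replicate 3 gave 0.11. With the muscle mean as a covariate Flt1 differed by -0.03, Kdr by 0.02, Pecam1 by 0.01, Cdh5 by 0.05, Tek by -0.07 and Tie1 by 0.17.

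**Figure D2:**
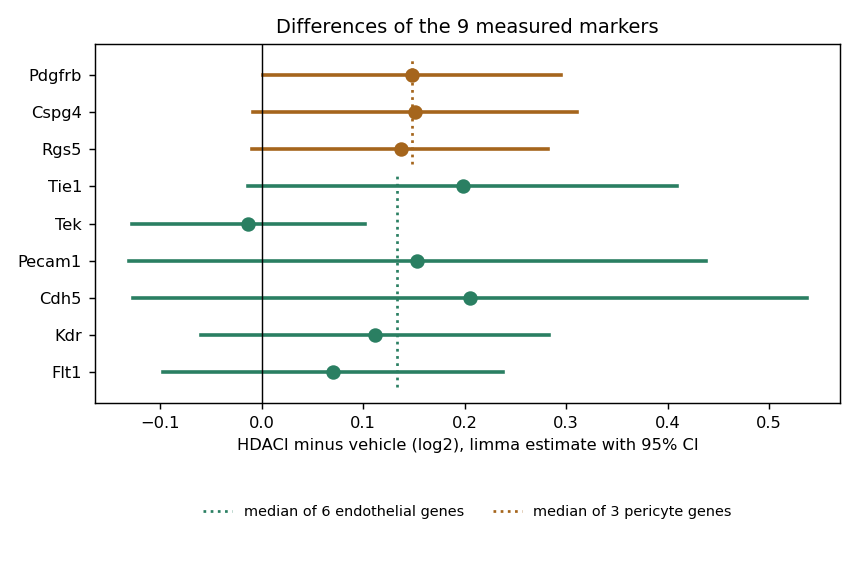
Points give the difference HDACI minus vehicle on the log2 scale for each marker and lines its limma 95% confidence interval, with pericyte genes in brown and endothelial genes in green and dotted lines for the class medians (0.15 and 0.13). The pericyte points lie between 0.14 and 0.15, whereas the endothelial points run from -0.01 to 0.20. The pericyte genes had been picked for their small p-values, so their narrower range is a description only.

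Set side by side, the classes had nearly the same median difference. All 3 pericyte genes, but of the endothelial genes only Tie1, had been picked for small p-values. The likeness is therefore a description only. The endothelial median was 0.02 below that of the pericytes (-0.02, log2). Leaving out 1 array at a time moved this gap from -0.07 to 0.04, and it turned positive without HDACI replicate 2 (0.01), HDACI replicate 3 (0.04) or vehicle replicate 3 (0.02). Averaged per array and given relative to the mean of all 8 arrays, the pericyte genes measured 0.14, 0.07, 0.03 and 0.05 in HDACI and -0.07, -0.10, -0.01 and -0.10 in vehicle (log2). Every HDACI array lay above every vehicle array on this mean, which is a description only, since the 3 genes had been picked with their differences known. The endothelial genes measured 0.11, -0.004, -0.07 and 0.20 in HDACI and -0.06, -0.18, 0.05 and -0.05 in vehicle. Here the groups overlapped, with vehicle replicate 3 above HDACI replicates 2 and 3. The endothelial mean less the pericyte mean was highest in HDACI replicate 4 (0.15) and lowest in HDACI replicate 3 (-0.11), both in the same group. In the wider lists given below, the median difference was 0.095 for endothelial genes and 0.038 for pericyte and smooth muscle genes (log2).

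**Figure D3:**
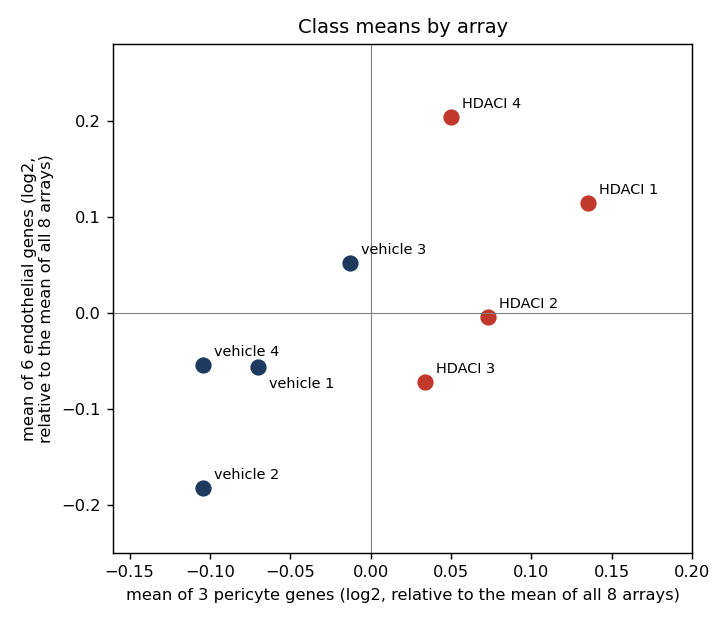
Each point is 1 array, placed by the mean of the 3 pericyte genes (horizontal) and of the 6 endothelial genes (vertical), both on the log2 scale relative to the mean of all 8 arrays, red for HDACI and dark blue for vehicle. The groups part along the pericyte axis (0.03 to 0.14 against -0.10 to -0.01) and overlap along the endothelial axis (-0.07 to 0.20 against -0.18 to 0.05). The 3 pericyte genes had been picked with their differences known, so the parting is a description only.

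Endothelial genes followed each other across the arrays to different degrees. Over the 8 arrays, Pearson's r was 0.88 for Tie1 and Cdh5, 0.83 for Pecam1 and Cdh5, 0.79 for Pecam1 and Kdr and 0.74 for Kdr and Flt1. For Tek it was -0.48 with Tie1, -0.18 with Cdh5, 0.18 with Kdr, 0.19 with Flt1 and 0.24 with Pecam1. For Flt1 it was 0.18 with Tie1 and 0.22 with Cdh5. The median was 0.40 over the 15 endothelial pairs, 0.29 over the 3 pericyte pairs and 0.39 over the 18 pairs of an endothelial and a pericyte gene. With the group means removed, these medians were 0.32, -0.27 and 0.31. The correlations are descriptions of the same 8 arrays, which the genes share along with the normalization. Across classes the closest pair was Flt1 and Rgs5 (0.79), both lowest in vehicle replicate 1 and highest in HDACI replicate 1.

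Array by array, HDACI replicate 1 lay above the gene's mean for 9 of the 9 markers, HDACI replicates 2 and 4 for 7 each and HDACI replicate 3 for 3. Of the vehicle arrays, replicate 3 lay above it for 6 markers, replicate 4 for 2 and replicates 1 and 2 for 1 each. Vehicle replicate 2 was the lowest of all arrays for 5 of the 9. It was also the lowest array for the fibroblast list (-0.31) and high in muscle genes (1.56), while HDACI replicate 4 was highest for fibroblast (0.39) and macrophage (0.47) genes, on the same scale.

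Outside the markers, the genes that followed the endothelial mean most closely across the 8 arrays were Plxnd1, an endothelial semaphorin receptor (r = 0.98), the ion cotransporter gene Slc12a7 (r = 0.98) and Wasf2, a regulator of the actin cytoskeleton (r = 0.96). They differed by 0.11, 0.12 and 0.09 (log2). The closest to the pericyte mean were Serpina9 (r = 0.95), the secreted hormone Stc1 (r = 0.94) and the neuropeptide receptor Npffr1 (r = 0.93), with differences of 0.15, 0.22 and 0.17. Serpina9 lay at the 12.7th percentile of probe set means and Stc1 and Npffr1 at the 39.6th and 44.0th, where the lowest of the 9 markers was Kdr at the 59.9th. These were the highest of 14488 genes in each case and are given as a description with no test. Since the pericyte mean parts the groups, genes close to it tend to differ between the groups as well. Their differences are therefore no separate evidence, and r was not recomputed with the group means removed.

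For 5 of the 10 markers (Tie1, Kdr, Flt1, Cspg4 and Rgs5) a promoter was matched in RefSeq (GRCr8). The 250 bases before the start were searched for 2 longer forms of the core bound by ETS factors, which are active in endothelium. The letters searched were AGGAAG or CGGAAG on either strand, 2 motifs that cannot start at the same base. They were found in 3 of the 5 promoters, with 2 matches for Flt1 and 1 each for Tie1 and Rgs5, and in 39.4% of all 33469 promoters. A longer form of the GATA site, AGATAA on either strand, was found in 0 of the 5 and in 10.3% of all. The shorter core GATA was not counted, and the Tie1 promoter shown holds it. A promoter of each class is shown, for the endothelial gene with the smallest p and for the pericyte gene read by the brightest probe set, 5′ to 3′ with the match in capitals. The rule thus differs between the classes, and both promoters shown hold a match. By the smallest p the matched pericyte promoter would have been that of Cspg4, which held 0 matches, as did Kdr. The shorter ETS core GGAA was not counted, and the Kdr promoter holds it. Tie1 lies on the minus strand (chr5:137304982-137305231, 61.6% G or C) and Rgs5 on the plus strand (chr13:84380827-84381076, 54.4% G or C).
Tie1: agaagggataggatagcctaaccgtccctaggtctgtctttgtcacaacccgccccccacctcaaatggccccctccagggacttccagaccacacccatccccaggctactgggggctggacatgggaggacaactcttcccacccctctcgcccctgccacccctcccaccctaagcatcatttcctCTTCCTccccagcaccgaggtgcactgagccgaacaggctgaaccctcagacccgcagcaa
Rgs5: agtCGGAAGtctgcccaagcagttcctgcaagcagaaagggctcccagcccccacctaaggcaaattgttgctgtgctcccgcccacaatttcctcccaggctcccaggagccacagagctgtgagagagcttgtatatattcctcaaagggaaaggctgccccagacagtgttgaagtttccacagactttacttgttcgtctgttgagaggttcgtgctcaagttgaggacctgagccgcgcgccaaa
A match describes the letters only, and binding was not measured in these samples.

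Further endothelial genes were mostly higher in HDACI as well. Of 32 listed genes 28 were measured, of which 23 were higher and 5 lower, with a median difference of 0.10 (log2). By limma, 3 were past an unadjusted p under 0.05, all of them higher, where 1.61% of all probe sets were, and 0 past the adjusted threshold. They were Sele, an adhesion molecule of activated endothelium (0.22 ± 0.08), Egfl7, a protein secreted by endothelial cells (0.17 ± 0.07), and Eng, a coreceptor for TGF-beta (0.24 ± 0.10, SE). Sele measured 7.51, 7.34, 7.27 and 7.59 in HDACI and 7.34, 7.15, 7.25 and 7.10 in vehicle. Eng measured 10.58, 10.49, 10.51 and 10.97 in HDACI and 10.51, 10.35, 10.40 and 10.34 in vehicle. HDACI replicate 4 was the highest array for both, as for Tie1 and Cdh5, and Eng differed by 0.13 without it. Egfl7 differed by 0.09 without vehicle replicates 1 and 2 and by 0.06 with the muscle covariate. Each of these genes lost its unadjusted p under 0.05 without HDACI replicate 1, HDACI replicate 4 or vehicle replicate 2, and with the muscle covariate. Eng kept its difference with that covariate (0.24). With the muscle mean as a covariate 15 of the 28 genes were higher, with a median of 0.03, and without vehicle replicates 1 and 2 there were 18, with a median of 0.04. Leaving out vehicle replicate 2 alone gave 25 and a median of 0.06.

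In the wider pericyte and smooth muscle list genes lay on both sides of 0. Of 25 genes 22 were measured, of which 15 were higher and 7 lower, with a median of 0.04 (log2) and 0 past an unadjusted p under 0.05 in either direction. Kcnj8 and Abcc9, which together form the ATP-sensitive potassium channel of pericytes, differed in opposite directions, by 0.15 ± 0.07 and -0.17 ± 0.09 (SE). Both of these genes lie among the 3 with the smallest p, the remaining one being Cox4i2, a subunit of cytochrome oxidase found in pericytes (0.20 ± 0.11). The Abcc9 difference became -0.26 when vehicle replicate 4 was omitted and -0.06 when vehicle replicates 1 and 2 were, and that of Cox4i2 became 0.11 without HDACI replicate 1. Of the genes of contractile smooth muscle, chosen after their values were seen, Acta2 differed by 0.02, Myh11 by 0.02, Cnn1 by 0.05, Tagln by 0.06, Mylk by 0.01 and Lmod1 by -0.06. The list's median was -0.03 with the muscle mean as a covariate, and it was 0.00 without vehicle replicate 4, 0.01 without HDACI replicate 3 and 0.09 without vehicle replicate 3.

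Among 32 measured ligands and signalling partners of the 35 listed, 22 were higher and 10 lower (median 0.09, log2), and 1 was past an unadjusted p under 0.05 in the higher direction, as were 1.61% of all probe sets. This gene was Pdgfb, which encodes the ligand of Pdgfrb. It measured 9.10, 8.95, 9.04 and 9.14 in HDACI and 8.82, 8.90, 8.97 and 8.96 in vehicle, where HDACI replicate 2 lay inside the vehicle range and the rest above it. The difference was 0.15 ± 0.06 (log2, SE), and 0.06 with the muscle mean as a covariate and 0.09 without vehicle replicates 1 and 2. Its unadjusted p was no longer under 0.05 in either case, nor without HDACI replicate 1 or 4 or vehicle replicate 1 or 2. Next came the peptide Apln (0.12 ± 0.06) and its receptor Aplnr (0.21 ± 0.11). Without HDACI replicate 3 Apln differed by 0.07, and without HDACI replicate 4 Aplnr by 0.12. The VEGF, PDGF and angiopoietin ligands of the list, chosen after their values were seen, lay on both sides of 0. Apart from Vegfd, which had the largest difference and is given below, differences of the VEGF family were 0.08 for Vegfa, -0.05 for Vegfb, -0.01 for Vegfc and 0.14 for Pgf (SE 0.07 to 0.12). The remaining PDGF genes differed by 0.09 for Pdgfa, 0.07 for Pdgfc and -0.003 for Pdgfd (SE 0.06 to 0.10), the Tek agonist Angpt1 by 0.15 ± 0.18 and Angpt2 by 0.02 ± 0.06. The list's median was 0.05 without HDACI replicate 4 and 0.04 with the muscle covariate. Vegfd, a VEGF family member and ligand of lymphatic growth, differed by -0.38 ± 0.22 (SE), with a vehicle SD of 0.48. Its HDACI arrays ran from 7.636 to 8.115. Vehicle replicates 3 and 4 lay inside that range at 7.83 and 7.86. Only vehicle replicates 1 and 2, the arrays highest in muscle genes, lay above it, at 8.53 and 8.79.

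Genes of the barrier between blood and nerve were evenly divided. Of 13 listed genes 11 were measured, 6 higher and 5 lower (median 0.00, log2), and 0 were past an unadjusted p under 0.05. The split depended on the arrays, since 9 were higher without HDACI replicate 4, 5 without vehicle replicate 1, and 2 either without vehicle replicates 1 and 2 or with the muscle covariate (medians 0.07, -0.08, -0.08 and -0.09). Those with the smallest p were Lsr, a protein of tricellular junctions (0.19 ± 0.09), Cav1, the coat protein of caveolae (0.28 ± 0.17), and the glucose transporter Slc2a1 (0.11 ± 0.09, SE). The tight junction genes Cldn5 and Ocln, chosen after their values were seen, differed by -0.01 ± 0.10 and 0.00 ± 0.14. With the muscle covariate Lsr differed by 0.04 and Cav1 by 0.15. Without vehicle replicates 1 and 2 Lsr differed by 0.09, and without vehicle replicate 2 Cav1 by 0.17. Slc2a1 differed by 0.02 without vehicle replicate 1, -0.01 without vehicle replicates 1 and 2 and -0.07 with the muscle mean as a covariate.

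**Figure D4:**
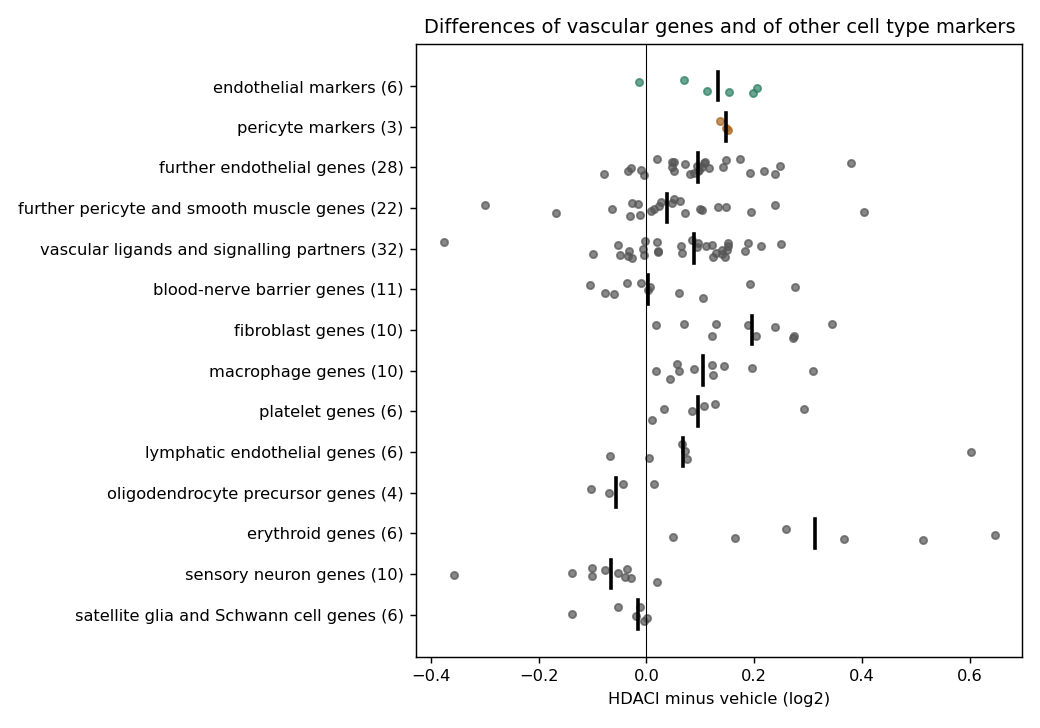
Each point is the difference HDACI minus vehicle (log2) of 1 gene, grouped by list with the number measured in parentheses, vertical bars mark the list medians, and skeletal muscle genes (-2.70 to -0.16) are left out for scale. The fibroblast, macrophage, platelet and erythroid points all lie above 0, while barrier, neuronal and glial genes lie on both sides of it.

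Of the fibroblast, macrophage and platelet genes, 0 were past an unadjusted p under 0.05 (limma) in either direction. All 10 fibroblast genes had a higher mean in HDACI (median 0.20), and their mean ran from -0.08 to 0.39 in HDACI against -0.31 to 0.14 in vehicle (log2, centred on the 8-array mean). The collagen Col1a1 differed by 0.20 ± 0.10 and the matrix protein Fbln1 by 0.34 ± 0.19 (SE), the latter by 0.15 without HDACI replicate 4 and the former by 0.13 with the muscle covariate. Pdgfrb is also a fibroblast gene, and the part of fibroblasts in its difference was not tested. Without HDACI replicate 4 the fibroblast median was 0.10 with 8 of 10 genes higher, and without vehicle replicate 2 it was 0.11 with 9 higher.

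All 10 macrophage genes were likewise higher in mean (median 0.10), with HDACI replicate 4 at 0.47, the remaining HDACI arrays from -0.17 to 0.06 and vehicle arrays from -0.14 to 0.11. Cd14 differed by 0.31 ± 0.21 and Csf1r by 0.09 ± 0.09 (SE), and by 0.07 and 0.02 without HDACI replicate 4, when 6 of the 10 genes were higher (median 0.01). Of the platelet genes 6 of 8 were measured and all 6 were higher (median 0.10), at -0.01 to 0.10 in HDACI and -0.13 to 0.06 in vehicle. Pf4 differed by 0.29 ± 0.19 and Gp1ba, at the 23.1st percentile, by 0.13 ± 0.06 (SE), and Pf4 by 0.11 without HDACI replicate 4. Without vehicle replicates 1 and 2, 3 of the 6 were higher (median 0.03). Pecam1 is made by both cell types, and their part in its difference was not tested.

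Of the 6 lymphatic endothelial genes 5 were higher (median 0.07), among them Ccl21, a chemokine of lymphatic vessels, past an unadjusted p under 0.05 (0.60 ± 0.24, SE). It measured 9.64, 9.59, 8.56 and 9.78 in HDACI and 8.78, 8.82, 8.89 and 8.66 in vehicle, so that HDACI replicate 3 lay below every vehicle array and the others far above. When 1 array was left out, its unadjusted p stayed under 0.05 only without HDACI replicate 3 or vehicle replicate 3, and it was lost with the muscle covariate, in a direction where 1.61% of all probe sets passed. The list's median was 0.02 without HDACI replicate 4, 0.02 without vehicle replicate 2 and -0.02 with the muscle covariate. Reln, made by lymphatic endothelium and by neurons, differed by 0.07 ± 0.07, or 0.13 without HDACI replicate 3 and 0.04 without vehicle replicate 2. Prox1, the defining transcription factor of lymphatic identity, lay at the 23.5th percentile and differed by -0.07, and Lyve1 differed by 0.07, both chosen after their values were seen.

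Of the erythroid, neuronal and glial genes, too, 0 were past an unadjusted p under 0.05. The 6 measured of 8 erythroid genes had a higher mean in HDACI (median 0.31, and 0.09 without HDACI replicate 2), from -0.32 to 0.90 in HDACI against -0.47 to 0.20 in vehicle, and Hbb-b1 differed by 0.65 ± 0.43 and Hemgn by 0.16 ± 0.10 (SE), or 0.22 and 0.09 without that replicate. Sensory neuron genes were lower for 9 of 10 measured of 12 listed (median -0.07), with Isl1 at -0.14 ± 0.08 and Tubb3 at -0.10 ± 0.06. Their median was -0.04 with 3 higher without HDACI replicate 4 and -0.12 without vehicle replicate 1, and Isl1 differed by -0.21 without vehicle replicate 1 and -0.09 without vehicle replicate 2. Of satellite glia and Schwann cell genes 6 of 10 were measured and 5 were lower (median -0.01), with Fabp7 at -0.14 ± 0.12 and Kcnj10 at -0.05 ± 0.11. Fabp7 differed by -0.25 without vehicle replicate 2 and -0.06 without vehicle replicate 4. Without HDACI replicate 4, 5 of these 6 were higher (median 0.06), Kcnj10 among them (0.05), and the neuronal median was -0.17 with the muscle covariate. Of the 16 measured muscle genes, by contrast, 14 were past an unadjusted p under 0.05 (limma), all lower, and 0 past the adjusted threshold. Over all 28826 probe sets 1022 were past the unadjusted threshold in either direction. Of these muscle genes Myh4 differed by -2.70 ± 0.90 and Ttn by -2.32 ± 0.77 (SE).

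**Figure D5:**
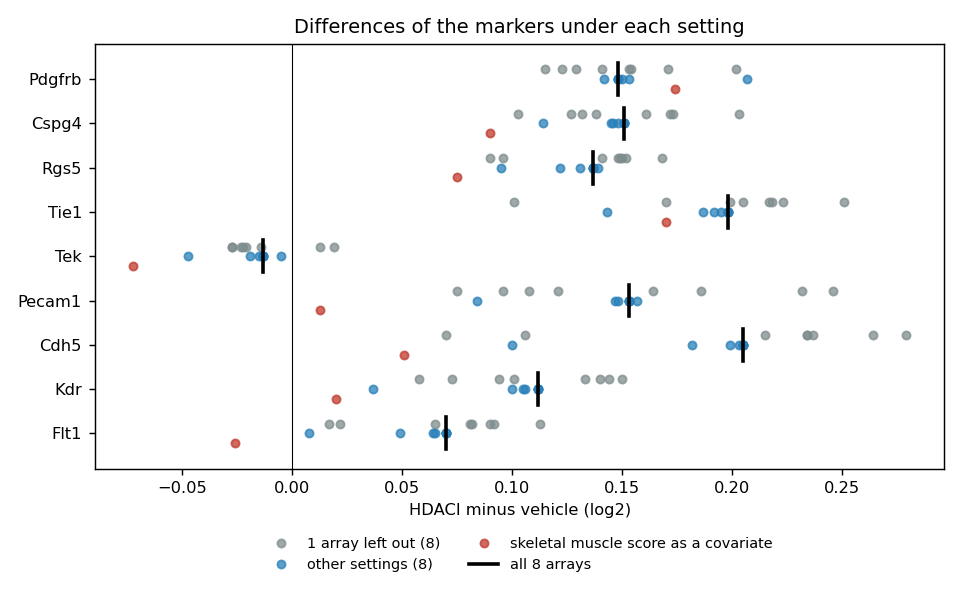
For each marker the black bar is the difference HDACI minus vehicle (log2) with all 8 arrays, grey points leave out 1 array each, blue points are other settings and red points add the mean of skeletal muscle genes as a covariate. The red points lie at or below every other point for Tek (-0.07), Pecam1 (0.01), Cdh5 (0.05), Kdr (0.02), Flt1 (-0.03), Cspg4 (0.09) and Rgs5 (0.07), but at 0.17 for both Pdgfrb and Tie1.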

How the data were processed

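Gene expression was measured on Affymetrix Rat Gene 1.0 ST arrays, 1 per replicate. The deposited values were log2 values of 28826 probe sets, made by the authors with robust multi-array averaging (RMA) through oligo in R (versions not given in the sources used here). Since RMA brings all arrays to nearly one distribution (medians 8.13 to 8.16), a change shared by all transcripts is not visible, and differences of dim probe sets are compressed. Arrays have no read depth, and their number limits the precision. Between any pair of arrays, equal values were seen for at most 0.0486% of the probe sets.

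Symbols were taken from the platform annotation and updated through gene identifiers to RefSeq (GRCr8). Of the probe sets 15209 carried 1 symbol, 306 several and 13311 none. The brightest probe set of a gene was used. Differences (HDACI minus vehicle) were tested on all probe sets with limma 3.58.1 in R 4.3.3, two-sided, with no block or covariate and Benjamini-Hochberg adjustment over the 28826 probe sets. The script was tested on simulated data. Percentiles rank a probe set's mean among all probe sets. A list's mean per array averages its genes after each was centred on its mean over the 8 arrays. Classes and lists were described by counts and medians with no test.

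The markers, lists and alternatives were chosen with earlier results of these data known. Named from each vascular list were up to 3 genes with the smallest p, from each list of another cell type up to 2, and for each class the 3 genes closest to its mean. The labels number the replicates 1 to 4 in each group, and nothing in them ties equal numbers together. The study's methods call the replicates biological; how many ganglia each array pooled is not given in the sources used here. Alternatives were the replicate number as a block, each array left out, vehicle replicates 1 and 2 left out, the muscle mean as a covariate, removal of probe sets under the 30th percentile, median centring, cyclic loess, an intensity trend with robust variances, array weights and the mean of all probe sets of a gene.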

Additional observations from a re-analysis of the deposited data

Results flagged for a closer look

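Of 24 groups of 4 arrays examined (the 9 markers, the means of both classes and their difference, each in HDACI and in vehicle), 3 had a single array standing apart from the rest, where chance marks about 1 in 20. The measure is the gap of the end array to its neighbour as a share of the group's range, judged by Dixon's test. It was 0.951 for Rgs5 in vehicle, where replicate 1 was low at 11.65 against 11.80 to 11.81. It was 0.862 for Flt1 in vehicle, where replicate 1 was low at 8.98 against 9.17 to 9.20. For Tek it was 0.878, with vehicle replicate 3 high at 9.92 against 9.79 to 9.80. Vehicle replicate 1 was also the array highest in skeletal muscle genes (2.32), and its part in the low values was not tested.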

How the results depend on the processing

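The markers were recomputed under 17 settings, 8 of which left out 1 array each. Of 153 values for single markers, 150 kept their sign. The exceptions were Tek, which ran from -0.027 to 0.019 when 1 array was left out, and Flt1 with the muscle mean as a covariate (-0.026, log2). The replicate block, the intensity trend, removal of dim probe sets and the mean of all probe sets leave every marker's difference unchanged by design. Signs kept under these settings are no evidence of stability. In no setting did any marker or any probe set pass an adjusted p under 0.05. The median of the endothelial genes ran from 0.08 to 0.18 and that of the pericyte genes from 0.12 to 0.17 with 1 array left out, and with the muscle mean as a covariate they were 0.016 and 0.09. Their gap ran from -0.072 to 0.042 with 1 array left out. Markers past an unadjusted p under 0.05 numbered 1 with all arrays, 0 to 1 with 1 array left out, 0 with the replicate block, without vehicle replicates 1 and 2, with the muscle mean as a covariate and with median centring, and 2 with an intensity trend and robust variances. Of all 28826 probe sets, 1022 passed in either direction with all arrays and 708 to 1758 with 1 array left out. Without vehicle replicates 1 and 2 there were 1383, and with the muscle covariate 1135. Median centring gave 1008, and the intensity trend with robust variances 1024. Arrays with the same number did not deviate together (r = -0.04, 0.01, 0.01 and -0.28 for numbers 1 to 4), and none matched its own number best. With 1 array of each group per number, the replicate block cannot change a difference, so the medians stayed at 0.13 and 0.15. The block lowered the probe sets past an unadjusted p under 0.05 from 1022 to 803. With 4 arrays per group, the differences of these markers did not pass the spread between arrays after adjustment.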
